A study of Mus musculus with 54 samples.

Results

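The genes described here are 37 members of the antioxidant defence of mouse cells, most of them known targets of the transcription factor NRF2. They were taken by symbol from the table of counts, which lists 16632 genes. All 37 were found there, and all 37 passed the filter on low counts that left 13169 genes for testing. The data come from 54 RNA libraries of cultured primary microglia, the macrophages that reside in the brain, isolated from neonatal C57BL/6 mice by shaking them off an astrocyte layer. Donor cultures took up alpha-synuclein (aSyn), the protein that aggregates in Parkinson disease, acceptor cultures were stained with a cell dye, and the pair was mixed so that transfer between them could be followed. The comparisons ask what aSyn changes in the cells that took it up and in the cells that met them.

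The labels number the replicates of each group from 1 to 4, and libraries with the same number are here called an experiment, a reading of the number that the labels do not state. Untreated cells gave 6 libraries from 4 experiments. Cells labelled aSyn_Donor, here called aSyn-treated, gave 4 libraries, and donors were exposed to 1 µM Atto-488-labelled aSyn for 14 h. Acceptors carried the dye CellTracer Violet and no added aSyn. Co-cultured donors and acceptors were separated by flow cytometry after 15, 30, 60, 150 or 300 min, and further donor and acceptor libraries are labelled 0 min. Each group of donors or acceptors held 3 or 4 libraries, at most 1 from each experiment. Not analysed here are experiment 4 at 0 min in both, experiment 2 at 60 min in donors, and experiment 3 at 300 min in acceptors. Sorting of the untreated and the aSyn-treated cells is not given in the sources used here. Between these 2 groups the aSyn and its label differ, and sorting may differ, and these cannot be told apart. Acceptors differ from untreated cells in dye and co-culture, and may differ in sorting, and these cannot be told apart. Donors differ from acceptors in the aSyn, in its label and in the dye of the acceptors, and these cannot be told apart either.

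NRF2, encoded by Nfe2l2, is held in the cytoplasm and marked for degradation by KEAP1. When electrophiles or oxidants modify KEAP1, NRF2 accumulates, enters the nucleus, pairs with small MAF proteins such as MAFG and binds antioxidant response elements near its target genes. The targets supply glutathione, thioredoxin and NADPH and detoxify quinones, carbonyls, heme and peroxides, which phagocytes such as microglia meet when they make superoxide and digest what they have engulfed. NRF2 is controlled mainly at the level of the protein, so its mRNA need not move with its targets.

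Library totals ran from 7807389 to 15537493 counts with a median of 13036175.5. Levels are given as CPM, which scales counts by library size, on TMM-scaled library sizes, and in every list of 4 values the order is experiments 1, 2, 3 and 4. The experiments differed in cell passage (3 in experiment 1, 1 in experiment 2, 2 in experiments 3 and 4), and the identifiers in the titles of experiment 4 come from another number range. The ribosomal RNA precursor Rn45s held 13.4 to 22.3% of a library in experiment 4 and 1.42 to 13.5% in the others. For the members the experiment mattered more than the group: it held a median of 47.3% of a member's variance in log2 CPM, against 25.5% for the group, while over all genes tested the medians were 32.9% and 23.7%. Hmox1 was at one end, with 86.4% of its variance between experiments, and Sod1 at the other, with 1.0%. Same-numbered libraries deviated together, so each test is given without and with the experiment as a block.

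The core of the antioxidant response element is TGACNNNGC, and the windows below are shown because many of these genes are known for carrying it. In RefSeq promoters (GRCm38.p6), the 250 bases before the start site held it on either strand in 11 of the 31 members with an entry, against 10.2% of 32851 promoters and 11.5% of 27025 genes. Of the members that were called in aSyn-treated cells with the block, 6 of 19 with an entry held it, and of the other members 5 of 12. The fuller form TGACTCAGC was in 2 members, Htatip2 and Prdx1, and in 0.39% of all promoters. A match is a description of the letters and shows no binding. The start sites are those of RefSeq, and in the GRCm38 annotation used below the windows of Htatip2, G6pdx, Txnrd1 and Mgst1 lie inside the gene. Below are 41 bases around the match in the 6 called members, 5′ to 3′ on the strand of the gene, with the match in capitals. The match of Htatip2 reads forward and those of the other 5 as the reverse complement.
Htatip2 (chr7:49759447-49759487, plus strand): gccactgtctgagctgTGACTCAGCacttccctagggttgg
G6pdx (chrX:74428913-74428953, minus strand): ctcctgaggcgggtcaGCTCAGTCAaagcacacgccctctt
Prdx1 (chr4:116685450-116685490, plus strand): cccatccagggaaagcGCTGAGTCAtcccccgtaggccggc
Txnrd1 (chr10:82859098-82859138, plus strand): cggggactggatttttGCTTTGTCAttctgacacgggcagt
Gclm (chr3:122245407-122245447, plus strand): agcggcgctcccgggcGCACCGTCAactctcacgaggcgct
Mgst1 (chr6:138140455-138140495, plus strand): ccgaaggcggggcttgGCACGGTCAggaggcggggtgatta

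In aSyn-treated cells these genes stood mostly higher than in untreated cells. Of the 37 members, 31 had a higher fitted level in aSyn-treated than in untreated cells, and the median log2 fold change was 0.49, against -0.04 over all genes tested, of which 45.9% were higher. The edgeR quasi-likelihood test without the block called 3 members when p-values were adjusted by Benjamini-Hochberg and the threshold was 0.05 (Osgin1, Esd and Htatip2), all higher, beside 2.50% of all genes in either direction and 1.60% higher. With the experiment as a block it called 23 of 37, all higher, beside 19.2% of all genes in either direction, 8.95% higher and 10.2% lower. Between the experiments the members' median difference was 0.06, 0.65, 0.85 and 0.73 on the log2 scale, so experiment 1 stood near 0 and the others did not. In all 4 experiments 15 members were higher (14.8% of all genes were), and for 9 members the values of the groups did not overlap (4.50% of all genes, higher).

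**Figure D1:**
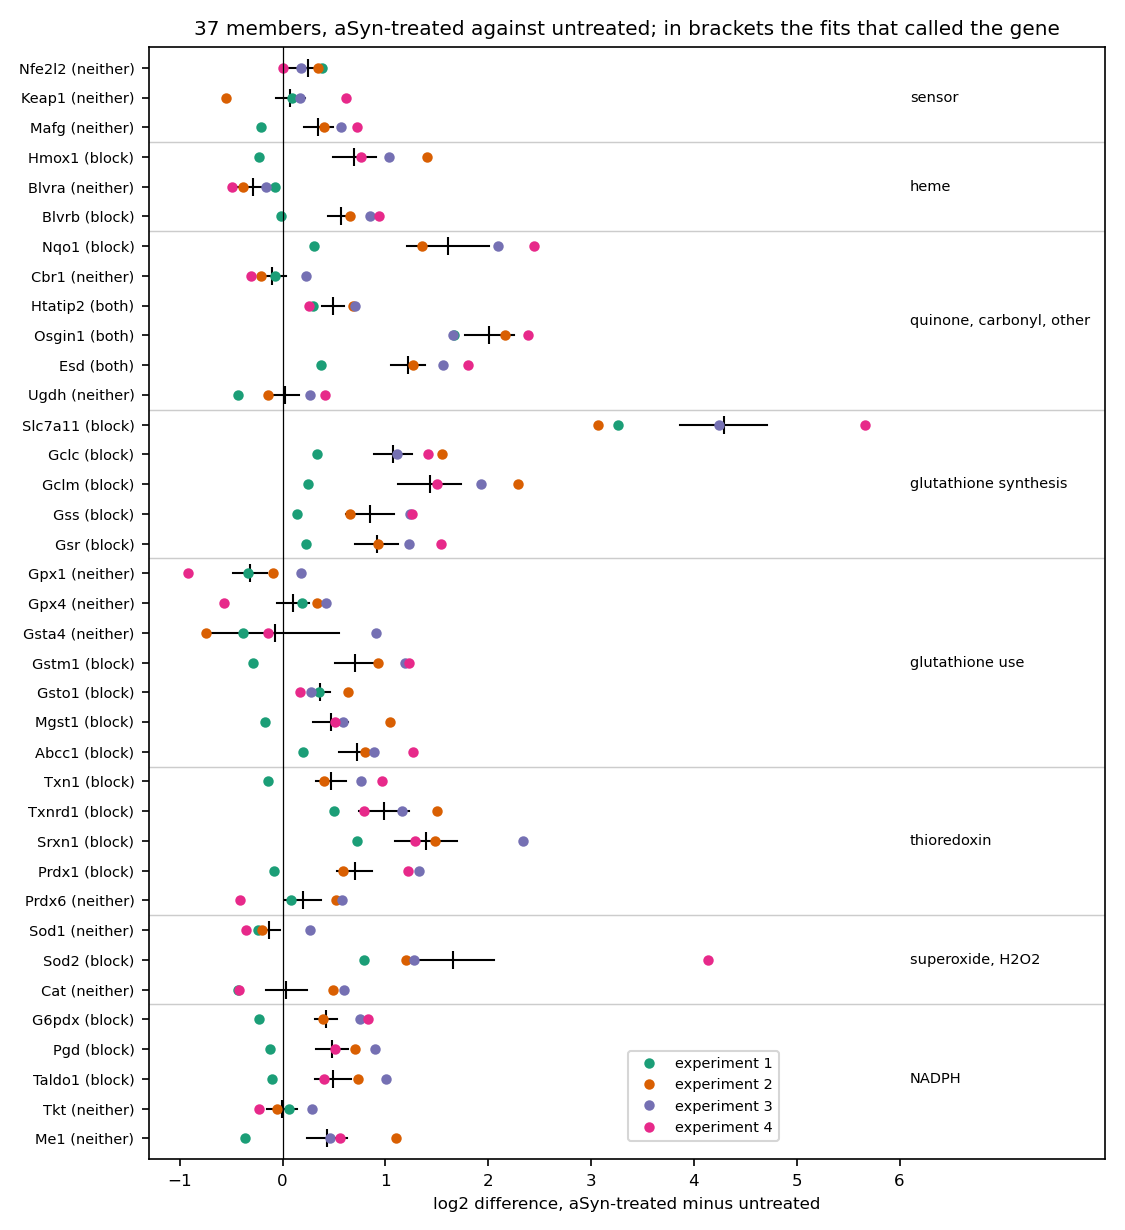
Log2 difference between aSyn-treated and untreated cells for the 37 members, ordered by role. Coloured points are the 4 experiments, and the black tick and bar are the estimate of the fit with the block and its SE. Brackets give which fits called the gene. Slc7a11 lies furthest to the right, and in most members experiment 1 is the lowest point.

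The sensor and its partners showed little. Nfe2l2 (chr2:75675513-75704641, GRCm38), which encodes NRF2, stood at 253.6, 221, 258 and 242.6 CPM in untreated and at 330.02, 279.6, 293 and 242.7 CPM in aSyn-treated cells. Experiments 1 and 2 were the higher ones and experiment 4 did not move (log2 fold change 0.23, SE 0.22, adjusted p = 0.64 without and 0.354 with the block). Keap1, the gene of the inhibitor, had differences of 0.092, -0.55, 0.17 and 0.62 on the log2 scale. Mafg, a small MAF partner, had differences of -0.21, 0.40, 0.57 and 0.73, higher in 3 of 4 experiments. None of the 3 was called by either fit.

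Cystine import and glutathione synthesis held the largest change of any member, and all 5 of its members were called with the block, none without it. Slc7a11 (chr3:49892526-50443614), the transporter subunit that exchanges glutamate for cystine, measured 2.93, 1.70, 6.34 and 5.47 CPM in untreated and 29.4, 15.4, 123 and 284 CPM in aSyn-treated cells. Every aSyn-treated library was above every untreated one, while the levels of the experiments spread over a wide range within each group (log2 fold change 4.78, SE 1.45, adjusted p = 0.0651 without and 2.15e-09 with the block). The fold change fitted without the block was 27.5. Gclc, the catalytic subunit of the rate-limiting enzyme of glutathione synthesis, went from 36.6, 13.8, 28.5 and 70.01 to 46.3, 40.6, 61.8 and 187 CPM (log2 fold change 1.17, SE 0.80, adjusted p = 0.472 without and 8.67e-05 with the block). Its modifier subunit Gclm went from 47.6, 10.6, 27.3 and 81.6 to 56.6, 52.4, 104 and 231.6 CPM (log2 fold change 1.41, SE 0.88, adjusted p = 0.425 without and 9.82e-04 with the block). Both were higher within each of the 4 experiments, and experiment 4 was the highest in both groups, so the groups overlapped. Gsr, which returns oxidised glutathione to its reduced form, measured 39.4, 24.6, 28.6 and 27.3 CPM in untreated and 46.1, 46.9, 67.4 and 79.7 CPM in aSyn-treated cells (log2 fold change 1.01, SE 0.39, adjusted p = 0.155 without and 0.00204 with the block). Its groups did not overlap. Gss, which adds glycine to complete glutathione, did not overlap either, at 5.23 to 6.16 CPM in untreated and 6.78 to 12.8 CPM in aSyn-treated cells. In both genes the difference was smallest in experiment 1.

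Among the quinone and carbonyl enzymes and stress-induced regulators, 3 of 6 members were called without the block and 4 with it. Osgin1 (chr8:119434124-119446256), an oxidative stress-induced growth inhibitor, measured 9.69, 13.1, 7.63 and 10.4 CPM in untreated and 31.1, 59.3, 24.4 and 55.3 CPM in aSyn-treated cells. The rise was of similar size in all 4 experiments, at 1.67, 2.17, 1.66 and 2.39 on the log2 scale (log2 fold change 2.05, SE 0.38, adjusted p = 0.00137 without and 1.28e-07 with the block). It was the member called in each of the 4 fits that left out an experiment, with an adjusted p from 0.00344 to 0.0341. Esd (chr14:74732297-74750765), an esterase that acts on S-formylglutathione, measured 473, 282, 364 and 374 CPM in untreated and 611, 679, 1076 and 1303 CPM in aSyn-treated cells (log2 fold change 1.30, SE 0.34, adjusted p = 0.0254 without and 1.88e-06 with the block). Its groups did not overlap, and its rise was smallest in experiment 1, at 0.37. Htatip2 (chr7:49759115-49773975), a short-chain oxidoreductase, measured 47.9, 46.8, 38.6 and 43.996 CPM in untreated and 58.8, 75.1, 62.9 and 52.5 CPM in aSyn-treated cells (log2 fold change 0.49, SE 0.13, adjusted p = 0.0259 without and 7.72e-04 with the block). It rose by less than the others named here, but its replicates were close together. Esd was not called without experiment 3 (adjusted p = 0.255) or 4 (0.0871), and Htatip2 was not called without experiment 1 (0.0662), 2 (0.0860) or 3 (0.239). With the block both were called in every such fit. Nqo1, the quinone reductase that is the classic reporter of NRF2 activity, was a low gene, at 2.83, 0.959, 1.37 and 3.09 CPM in untreated and 3.54, 2.70, 6.36 and 17.5 CPM in aSyn-treated cells (log2 fold change 1.86, SE 0.84, adjusted p = 0.244 without and 0.00341 with the block). It was higher in each experiment, least in experiment 1. Cbr1, a carbonyl reductase, and Ugdh, which makes UDP-glucuronate, were called by neither fit, with differences of -0.072, -0.21, 0.23 and -0.30 and of -0.43, -0.14, 0.27 and 0.42.

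**Figure D2:**
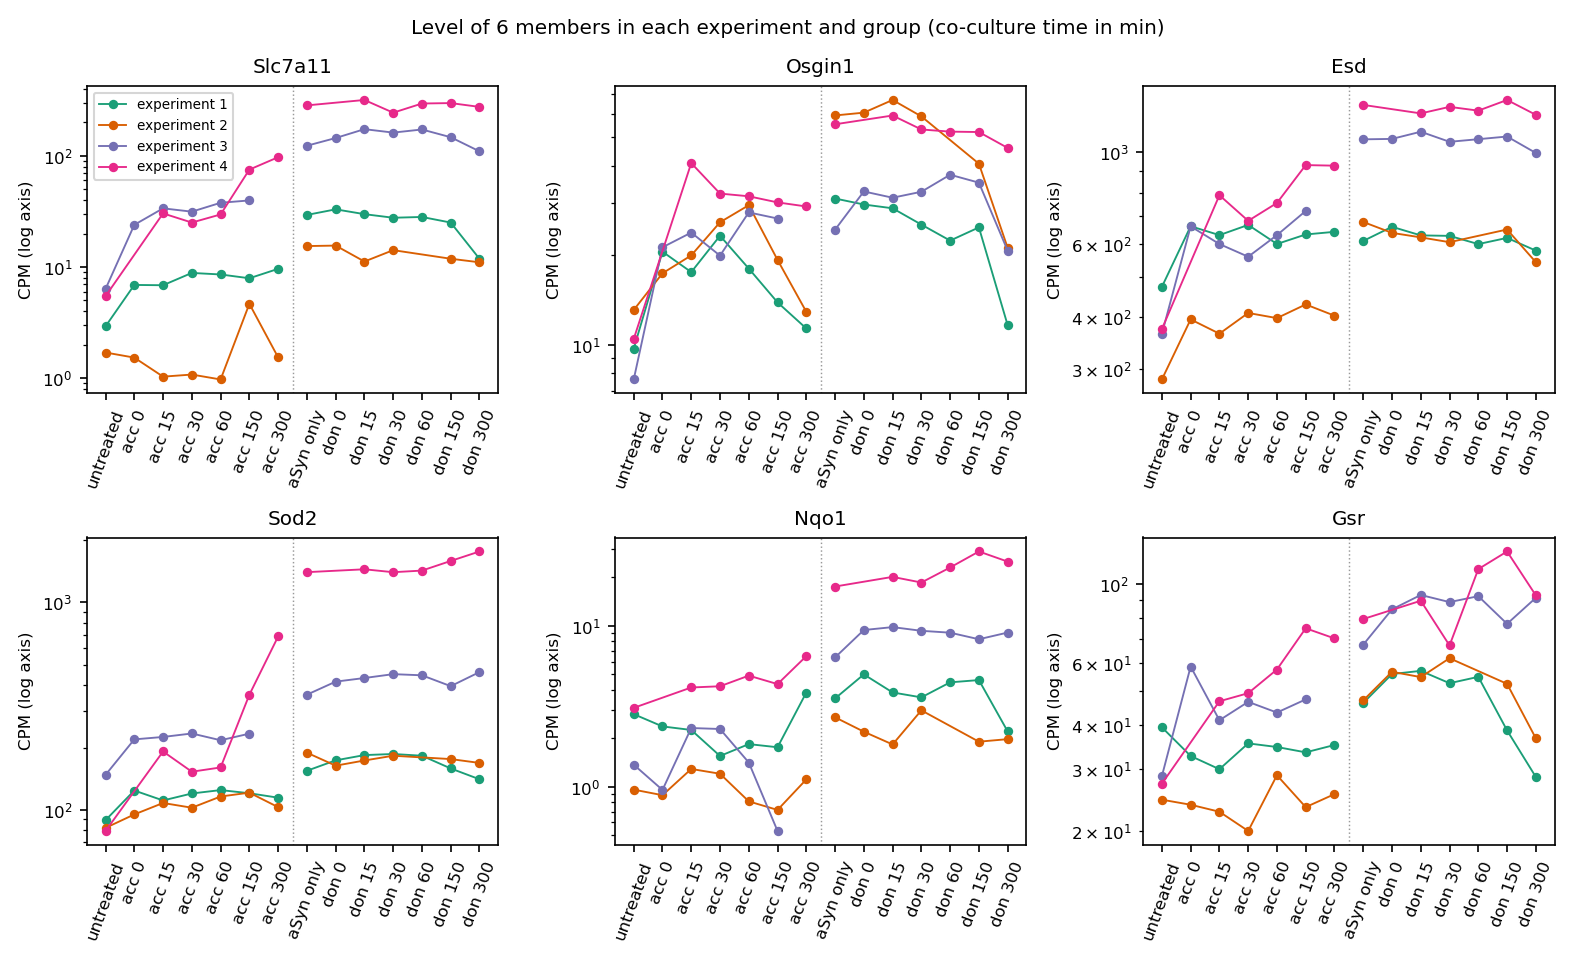
Level (CPM, log axis) of 6 members in each experiment, with untreated cells and acceptors left of the dotted line and aSyn-treated cells and donors right of it, each by co-culture time in min. For Slc7a11 and Sod2 the lines of experiment 4 run from 5.47 to 284 CPM and from 79.2 to 1399 CPM between untreated and aSyn-treated cells, and the donor side lies above the acceptor side within each experiment.

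Thioredoxin and peroxiredoxin genes followed, with 4 of 5 called with the block and none without it. Srxn1, the sulfiredoxin that repairs overoxidised peroxiredoxins, measured 189, 116, 121 and 181 CPM in untreated and 312, 325, 614 and 442 CPM in aSyn-treated cells (log2 fold change 1.48, SE 0.52, adjusted p = 0.119 without and 0.00105 with the block). Txnrd1, the cytosolic thioredoxin reductase, measured 186, 71.2, 145 and 181 CPM in untreated and 263, 202, 324 and 314 CPM in aSyn-treated cells (log2 fold change 0.92, SE 0.51, adjusted p = 0.361 without and 0.00342 with the block). In both genes every aSyn-treated value was above every untreated one. Txn1, thioredoxin itself, and Prdx1, an abundant peroxiredoxin, were called with the block, with differences of -0.14, 0.40, 0.76 and 0.96 and of -0.081, 0.58, 1.33 and 1.22. Both were slightly lower in experiment 1 and higher in the other 3. Prdx6, which also has phospholipase activity, was not called (differences 0.084, 0.52, 0.57 and -0.41).

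The heme and bilirubin enzymes split. Hmox1, which opens the heme ring, measured 211, 60.97, 210.3 and 869 CPM in untreated and 179.8, 161, 431 and 1469.6 CPM in aSyn-treated cells. It rose with the block (adjusted p = 0.0172, against 0.795 without), although experiment 1 was lower and the untreated levels lay far apart between experiments 2 and 4. Blvrb, a biliverdin reductase, measured 284, 223, 237.9 and 253.3 CPM in untreated and 281, 351, 429 and 484 CPM in aSyn-treated cells (log2 fold change 0.63, SE 0.26, adjusted p = 0.202 without and 0.00145 with the block). The other biliverdin reductase, Blvra, was the 1 member lower in all 4 experiments (17.4% of all genes were), with differences of -0.079, -0.39, -0.16 and -0.50, and was called by neither fit.

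Of the glutathione-using enzymes 4 of 7 were called with the block. These were the transferases Gstm1 (-0.29, 0.92, 1.19 and 1.23) and Gsto1 (0.35, 0.64, 0.27 and 0.17), the microsomal transferase Mgst1 (-0.17, 1.04, 0.59 and 0.51) and Abcc1 (0.20, 0.80, 0.89 and 1.27), a pump that exports glutathione conjugates. Gsto1 and Abcc1 were higher in all 4 experiments, Gstm1 and Mgst1 in 3. The glutathione peroxidases were not called: Gpx1, the cytosolic one, had differences of -0.34, -0.094, 0.18 and -0.92, and Gpx4, which reduces lipid peroxides, of 0.19, 0.33, 0.43 and -0.57. Gsta4, a transferase for lipid aldehydes, was low, at 5 to 30 counts in the aSyn-treated libraries. Its untreated levels were 1.11, 0.698, 1.20 and 2.22 CPM. The untreated units held 11 to 59 counts, but same-numbered libraries are summed there, so these counts are not to be compared. Gsta4 was called by neither fit, and its sign differed between them.

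The superoxide dismutases and catalase gave 1 call of 3 with the block. Sod2 (chr17:13006846-13040063), the mitochondrial dismutase, measured 89.3, 81.99, 148 and 79.2 CPM in untreated and 155, 189, 359 and 1399 CPM in aSyn-treated cells (log2 fold change 2.40, SE 0.83, adjusted p = 0.115 without and 0.00314 with the block). Experiment 4 set the size of the change: without it the log2 fold change was 1.16 in the fit without and 1.10 in the fit with the block (adjusted p = 3.87e-07). Sod1, the cytosolic dismutase, measured 407, 399, 346 and 439.96 CPM in untreated and 345, 348, 417 and 343 CPM in aSyn-treated cells. Cat, catalase, moved by -0.43, 0.49, 0.60 and -0.43 on the log2 scale, down in experiments 1 and 4 and up in 2 and 3. Neither was called.

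The genes that supply NADPH gave 3 calls of 5 with the block and none without it. G6pdx and Pgd, the dehydrogenases of the oxidative pentose phosphate pathway, had differences of -0.23, 0.39, 0.75 and 0.83 and of -0.12, 0.71, 0.90 and 0.51. Taldo1, transaldolase, had -0.11, 0.73, 1.01 and 0.40. All 3 were lower in experiment 1 and higher in the other experiments. Tkt, transketolase, and Me1, malic enzyme, were called by neither fit, with differences of 0.063, -0.059, 0.29 and -0.23 and of -0.36, 1.10, 0.46 and 0.55.

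Over the 23 members called with the block, 11 were also called in each of the 4 fits with the block that left out an experiment (Abcc1, Blvrb, Esd, Gclc, Gclm, Gsr, Htatip2, Osgin1, Slc7a11, Sod2 and Srxn1). The count was 25 without experiment 1 and 15, 13 and 16 without experiments 2, 3 and 4. How many of all genes those fits called is not given here, so these counts cannot be set against a share. In the GRCm38 annotation 9 members overlap a gene on the opposite strand (Keap1, Slc7a11, Gclm, Gss, Gsto1, Txnrd1, Sod1, G6pdx and Me1) and 10 a gene on their own strand. For 4 (Esd, Gpx4, Txn1 and Prdx6) the annotation lists a pseudogene copy under the same name. The use of strand in counting is not stated in the sources used here, so counts of these members may hold reads of the neighbour or copy.

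Genes around the pathway were read from 3 further lists, with values from the fit without the block unless said. Over all genes 1.60% were called higher without the block, and 8.95% higher and 10.2% lower with it, and the counts of the lists are to be read against these shares. Of 17 tested NRF2 regulators and related factors, 2 were called higher without the block, and 4 were higher and 2 lower with it. Sqstm1, whose product p62 binds KEAP1 and draws it into autophagy, measured 2015 ± 482 CPM in aSyn-treated against 548 ± 103 CPM in untreated cells (SD, n = 4, log2 fold change 1.88, SE 0.28, adjusted p = 1.16e-04). Nfe2l1, which encodes the NRF2 relative NRF1, measured 166 ± 53.7 CPM in aSyn-treated against 83.7 ± 20.6 CPM in untreated cells (SD, n = 4, log2 fold change 0.99, SE 0.25, adjusted p = 0.0241). Of 39 further glutathione, thioredoxin and NADPH genes, 3 were called higher without the block, and 7 were higher and 4 lower with it. Those called without the block were Msrb1, Chac1 and Ggct. Msrb1, which repairs oxidised methionine, measured 194 ± 63.9 CPM in aSyn-treated against 87.1 ± 14.2 CPM in untreated cells (SD, n = 4, log2 fold change 1.16, SE 0.24, adjusted p = 0.0036). Chac1, which degrades glutathione, measured 14.7 ± 3.35 CPM in aSyn-treated against 5.44 ± 2.40 CPM in untreated cells (SD, n = 4, log2 fold change 1.42, SE 0.37, adjusted p = 0.027). Ggct measured 11.3 ± 7.30 CPM in aSyn-treated against 3.57 ± 1.39 CPM in untreated cells (SD, n = 4, log2 fold change 1.65, SE 0.47, adjusted p = 0.048). The partner chain of Slc7a11, Slc3a2, rose with the block (log2 fold change 0.93, adjusted p = 0.00216 with the block) and was chosen for mention after its values were seen. Of 27 tested genes listed as further NRF2 target enzymes and transporters, 1 was called higher without the block, and 5 were higher and 2 lower with it. The 1 called without the block was Trib3, a pseudokinase of the stress response, at 51.1 ± 26.4 CPM in aSyn-treated against 11.5 ± 9.18 CPM in untreated cells (SD, n = 4, log2 fold change 2.14, SE 0.46, adjusted p = 0.00521). As a pseudokinase it is neither an enzyme nor a transporter, and its control by NRF2 was not tested. Ncf4, a cytosolic subunit of the phagocyte NADPH oxidase, which makes superoxide, measured 182 ± 23.6 CPM in aSyn-treated against 82.1 ± 32.1 CPM in untreated cells (SD, n = 4, log2 fold change 1.15, SE 0.24, adjusted p = 0.00325). Ncf4 was picked from a separate list of NADPH oxidase genes that is not reported here as a whole. The medians of the 3 lists without the block were 0.14, -0.05 and -0.04 in this order, against -0.04 over all genes. They do not cover the NADPH oxidase genes.

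Markers of other cells moved between these groups too, and their part in the results was not tested. All 12 microglia markers were counted, and their summed level was 3656 to 4999 CPM in untreated and 1788 to 4530 CPM in aSyn-treated cells, lowest in experiment 4. With the block 3 of 11 tested microglia markers were lower and 1 higher. The 9 astrocyte markers summed to 11.7 to 156 CPM in untreated and 11.2 to 37.97 CPM in aSyn-treated cells, and 5 of 9 were lower with the block. For the 7 oligodendrocyte markers the sums were 116 to 582 and 79.6 to 241.1 CPM, with 4 of 7 lower with the block. Neuron markers summed to 3.13 to 30.0 and 1.35 to 3.34 CPM, and the 5 markers of other myeloid cells in the table to 143 to 237 and 18.5 to 211 CPM, with 1 of 4 tested neuron markers lower and none of the 4 tested other myeloid markers called. Mrc1 reached 245.6 CPM and no other marker of other myeloid cells passed 8.46 CPM in any library, so their larger sums were mostly Mrc1. Without the block the log2 fold change was -0.87 for Mrc1 and -0.99 for F13a1, but 0.52 for Ccr2 and 3.26 for S100a8. Without the block the 1 marker called was the vessel gene Pecam1, which had at most 39 counts in a library. No marker in the table was at 0 in every library. In bulk RNA fewer cells of a type and less RNA per cell cannot be told apart.

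Acceptors, which had received no aSyn themselves, were compared with the same untreated libraries that the aSyn comparison uses, so the values stand side by side and are no independent set. No member was called at any time without the block (0, 0, 0.114, 0.0683, 0.137 and 0% of all genes were, at 0, 15, 30, 60, 150 and 300 min). An unadjusted p-value under 0.05 was reached by 5, 4, 3, 4, 6 and 5 members, beside 5.69, 6.37, 7.34, 7.62, 8.22 and 5.47% of all genes. With the block 2, 4, 4, 4, 7 and 2 members were called higher at these times, beside 0.387, 1.07, 1.56, 1.94, 2.32 and 0.311% of all genes, and 1 each was called lower at 150 and 300 min, beside 2.47 and 0.311%. The members' median log2 fold change lay between 0.15 and 0.29 over the times, against -0.04 to -0.02 over all genes. Osgin1, Esd, Gsto1 and Slc7a11 made up the calls from 15 to 60 min, and Osgin1 and Esd those at 0 min. Without experiment 3 the counts in either direction were 0, 0, 1, 2, 2 and 0 with the block, without experiment 1 they were 1, 2, 2, 3, 8 and 3, without experiment 2 they were 2, 2, 3, 3, 4 and 1, and without experiment 4 they were 2, 1, 4, 4, 4 and 0. The share of all genes called in these leave-out fits is not given here.

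Osgin1 measured 17.6, 19.99, 23.9 and 40.9 CPM in acceptors at 15 min, above the 9.69, 13.1, 7.63 and 10.4 CPM of untreated cells in every experiment (log2 fold change 1.32, SE 0.38, adjusted p = 0.311 without and 0.00191 with the block). At 60 min it measured 18.1, 29.5, 27.9 and 31.6 CPM (adjusted p = 0.142 without and 5.64e-04 with the block). By 300 min experiments 1 and 2 stood close to their untreated levels, at 11.3 and 12.9 CPM, and experiment 4 was at 29.2 CPM. Gsto1 had a small and even difference, 0.48, 0.57, 0.40 and 0.39 on the log2 scale at 60 min (adjusted p = 0.34 without and 0.00343 with the block), and it was 1 of 4 members whose groups did not overlap there (2.15% of all genes, higher). The adjusted p-values without the block stayed above 0.05 for both genes at all 6 times. Esd measured 633, 429, 722 and 932 CPM at 150 min (log2 fold change 0.86, SE 0.33, adjusted p = 0.437 without and 0.0033 with the block).

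Slc7a11 in acceptors depended on the experiment. At 15 min it measured 6.85, 1.03, 33.7 and 30.3 CPM, which was higher than in untreated cells in experiments 1, 3 and 4 and lower in experiment 2, where only 8 counts stood behind the value. At 150 min it measured 7.92, 4.66, 39.7 and 75.2 CPM, higher in all 4 (log2 fold change 2.96, SE 1.35, adjusted p = 0.55 without and 4.14e-04 with the block). Gclm, Srxn1 and Gclc were also called higher at 150 min with the block, with the largest difference of each in experiment 4 (0.21, 1.24, 0.93 and 2.15 for Gclm, -0.19, 0.22, 1.68 and 2.35 for Srxn1 and 0.061, 0.74, 0.44 and 1.39 for Gclc). Blvra was called lower there (-0.51, -0.70, -0.069 and -0.59). At 300 min, with 3 acceptor libraries, the calls with the block were Slc7a11 (adjusted p = 0.00333) and Esd (adjusted p = 0.0231), higher, and Gsta4, lower. Gsta4 had 0 to 2 counts in these acceptor libraries against 11 to 59 in the untreated units, where same-numbered libraries are summed. Without experiment 4 none of the 3 was called at 300 min, with an adjusted p of 0.185 for Slc7a11 and 0.247 for Esd with the block.

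Donors were compared with aSyn-treated cells to ask what co-culture changes in cells already loaded. No member was called at 0, 15, 30, 60, 150 or 300 min, without or with the block, where at 300 min 0.0304% of all genes were called without and 0.304% with it and no gene at the other times. At 0, 15, 30, 60 and 150 min no member had an unadjusted p-value under 0.05 without the block, beside 2.61, 1.02, 1.06, 2.10 and 0.904% of all genes. Slc7a11, for example, measured 29.4, 15.4, 123 and 284 CPM in aSyn-treated cells and 29.9, 11.2, 174 and 318 CPM in donors at 15 min. At 300 min 2 members had an unadjusted p-value under 0.05 without and 5 with the block, beside 2.78 and 8.60% of all genes.

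Those at 300 min were lower in donors. Nfe2l2 measured 330.02, 279.6, 293 and 242.7 CPM in aSyn-treated cells and 209.7, 166, 208 and 209 CPM in donors at 300 min, and it was the 1 member whose groups did not overlap there (1.13% of all genes, lower). It was singled out after its values were seen, and its log2 fold change was -0.53 (adjusted p = 1 without and 0.256 with the block). Osgin1 measured 11.6, 21.2, 20.7 and 46.1 CPM in donors at 300 min, with differences of -1.41, -1.48, -0.23 and -0.26 on the log2 scale (adjusted p = 1 without and 0.126 with the block). Experiments 1 and 2 were well below their aSyn-treated values and experiments 3 and 4 only slightly. Txnrd1 measured 139, 105, 243.4 and 308 CPM, with differences of -0.92, -0.95, -0.41 and -0.025. Hmox1 (-0.70, -0.55, -1.05 and -0.26) and Gclc (-0.49, -0.69, -0.54 and -0.48) were also lower in all 4 experiments, as were 10 of 37 members, beside 11.0% of all genes. With all 4 experiments none of these was called. The fit with the block that left out experiment 4 called Nfe2l2, Osgin1 and Txnrd1 lower. Their log2 fold changes there were -0.64, -1.09 and -0.76 (edgeR adjusted p = 0.00351, 0.0303 and 0.00777). Without the block none was called there (adjusted p = 0.179 for Nfe2l2). That fit is 1 of the 4 that left out an experiment. It drops the experiment in which Txnrd1 moved least, and the share of all genes it called is not given here. In the 4 fits with the block that left out an experiment, the adjusted p of Nfe2l2 ran from 0.00351 to 0.849.

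**Figure D3:**
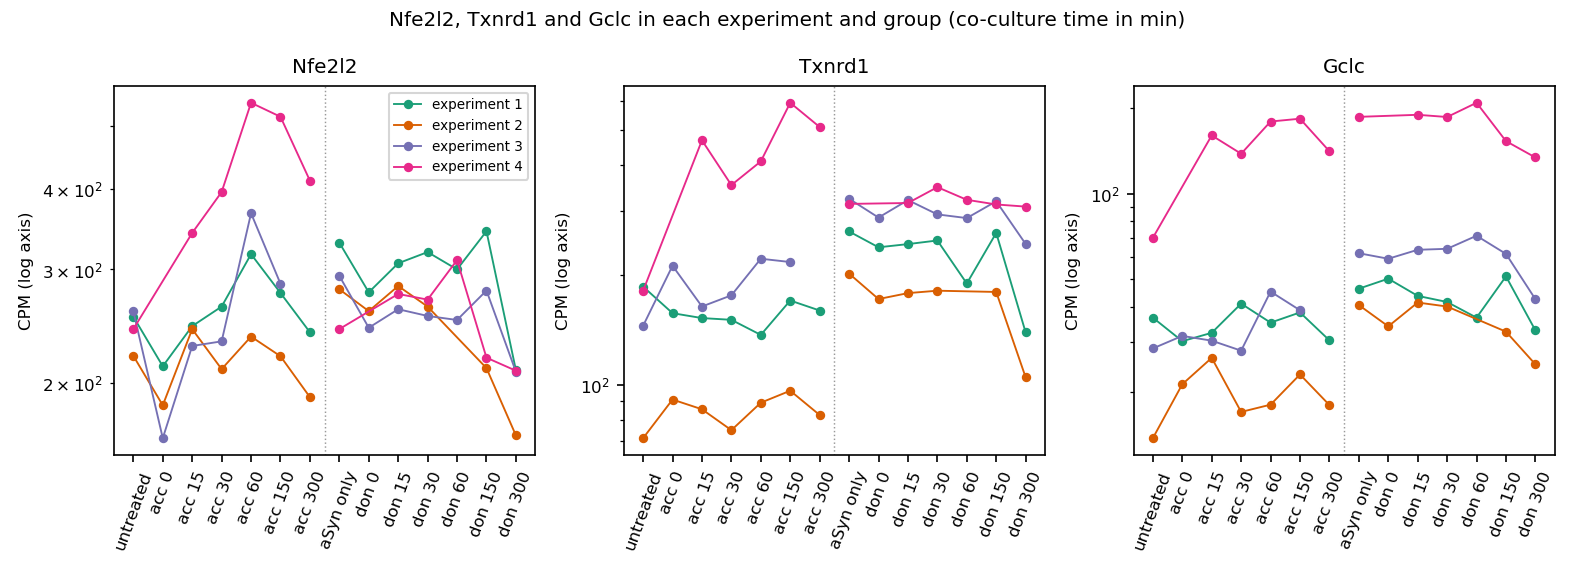
Level (CPM, log axis) of Nfe2l2, Txnrd1 and Gclc in each experiment, with untreated cells and acceptors left and aSyn-treated cells and donors right of the dotted line, by co-culture time in min. Donors at 300 min are the lowest point of their side for Nfe2l2 in all 4 experiments. In experiment 4 the acceptors of Nfe2l2 climb to 543 CPM at 60 min, while its donors stay between 209 and 310 CPM.

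Change over the co-culture times was tested with an F test in donors, in acceptors and for their difference. No member was called in any of the 3, without or with the block, where 0.0607, 0.00759 and 0% of all genes were called without and 0.577, 0.137 and 0.0456% with it. Without the block 0, 1 and 0 members had an unadjusted p-value under 0.05, beside 1.88, 1.86 and 0.858% of all genes, and with it 2, 2 and 1, beside 7.72, 6.64 and 3.78%. In acceptors the 1 member without the block was Nfe2l2 (edgeR adjusted p = 1 without and 0.34 with the block). Its acceptor levels went from 213, 185 and 165 CPM at 0 min in experiments 1 to 3 to 317, 236.3, 366 and 543 CPM at 60 min in all 4. All 4 libraries at 60 min were above all 3 at 0 min. At 150 min they measured 276, 220.3, 285 and 517 CPM. DESeq2's likelihood ratio test called Prdx1 in donors, and the share of all genes it called is not given here. The donor-acceptor difference at 300 min was set against that at 15 min, and 7 of 37 members had the larger difference at 300 min, beside 53.8% of all genes. Experiment 3 has no acceptor library at 300 min, so the 2 differences rest on unlike sets of experiments. No member was called without or with the block, beside 0 and 0.0152% of all genes.

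Donors were compared with acceptors of the same time, and again no member was called without the block at any of the 6 times, beside 0.251, 0.888, 0.805, 0.418, 0.167 and 0.0304% of all genes. An unadjusted p-value under 0.05 was reached by 3, 10, 11, 8, 8 and 4 members, beside 7.48, 11.5, 11.4, 9.85, 8.42 and 6.11%. With the block 6, 13, 17, 9, 8 and 0 members were called higher in donors at 0, 15, 30, 60, 150 and 300 min, beside 2.68, 5.0, 5.50, 3.62, 2.95 and 0.957% of all genes. Sod1 was the member called lower, at 30 and 150 min, beside 5.25 and 2.24%. The members' median log2 fold change was 0.42, 0.28, 0.44, 0.41, 0.21 and 0.07 at these times, and over all genes it lay between -0.03 and 0.004. The experiments behind these values change with time. Experiment 3, which has no acceptor library at 300 min, had the highest member median at 15, 30, 60 and 150 min (0.76, 0.74, 0.65 and 0.54). The comparison shares no library with that of aSyn-treated and untreated cells, but both come from the same 4 experiments. Leaving out experiment 2 or 3 lowered the count in either direction most: it was 1, 4, 5, 4, 2 and 0 without experiment 2, and 1, 5, 5, 2, 5 and 0 without experiment 3. It was 3, 11, 15, 9, 10 and 1 without experiment 1, and 13, 13, 14, 7, 7 and 1 without experiment 4. The share of all genes called in these leave-out fits is not given here, so the counts cannot be set against it. Slc7a11 was called at 0, 15, 30, 60 and 150 min in each of the 4 fits that left out an experiment, all with the block.

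Slc7a11 led at 0, 15, 30 and 60 min. At 15 min it measured 29.9, 11.2, 174 and 318 CPM in donors and 6.85, 1.03, 33.7 and 30.3 CPM in acceptors (log2 fold change 2.87, SE 1.31, adjusted p = 0.38 without and 7.51e-06 with the block). Within each experiment the donors were higher, while acceptors of experiments 3 and 4 were above donors of experiment 2. At 300 min the differences were 0.30, 2.72 and 1.5 in experiments 1, 2 and 4, and the gene was no longer called (adjusted p = 0.0635 with the block). Nqo1 measured 4.60, 1.91, 8.25 and 28.97 CPM in donors and 1.76, 0.718, 0.531 and 4.34 CPM in acceptors at 150 min, where it led (log2 fold change 2.58, SE 0.87, adjusted p = 0.275 without and 2.96e-04 with the block). Its acceptor values there rest on 8 to 55 counts. Blvrb measured 281, 328, 449 and 528 CPM in donors and 209, 213, 211 and 279.9 CPM in acceptors at 30 min, where 4 members did not overlap, beside 3.31% of all genes, higher (log2 fold change 0.80, SE 0.27, adjusted p = 0.161 without and 1.20e-04 with the block).

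Gsr and Txn1 separated the groups at 15 min. There Gsr measured 56.9, 54.6, 93.2 and 89.8 CPM in donors and 29.9, 22.7, 41.2 and 46.6 CPM in acceptors (log2 fold change 1.06, SE 0.39, adjusted p = 0.225 without and 7.42e-04 with the block). Txn1 measured 365, 344, 583 and 633 CPM in donors and 291, 248.7, 316 and 337 CPM in acceptors at 15 min, where 4 members (Gsr, Txn1, Htatip2 and Gss) had groups that did not overlap, beside 3.12% of all genes, higher. Gsr was called with the block at 0, 15, 30, 60 and 150 min and Txn1 at the same times other than 0 min. Sod1 was the exception, at 353, 335, 423 and 329 CPM in donors and 479, 517, 446 and 433 CPM in acceptors at 30 min, with every donor library below every acceptor library (2.52% of all genes, lower). Its log2 fold change was -0.38 (adjusted p = 0.128 without and 0.0197 with the block). DESeq2 called it at 30 min too, and the share of all genes called by DESeq2 there is not given here.

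**Figure D4:**
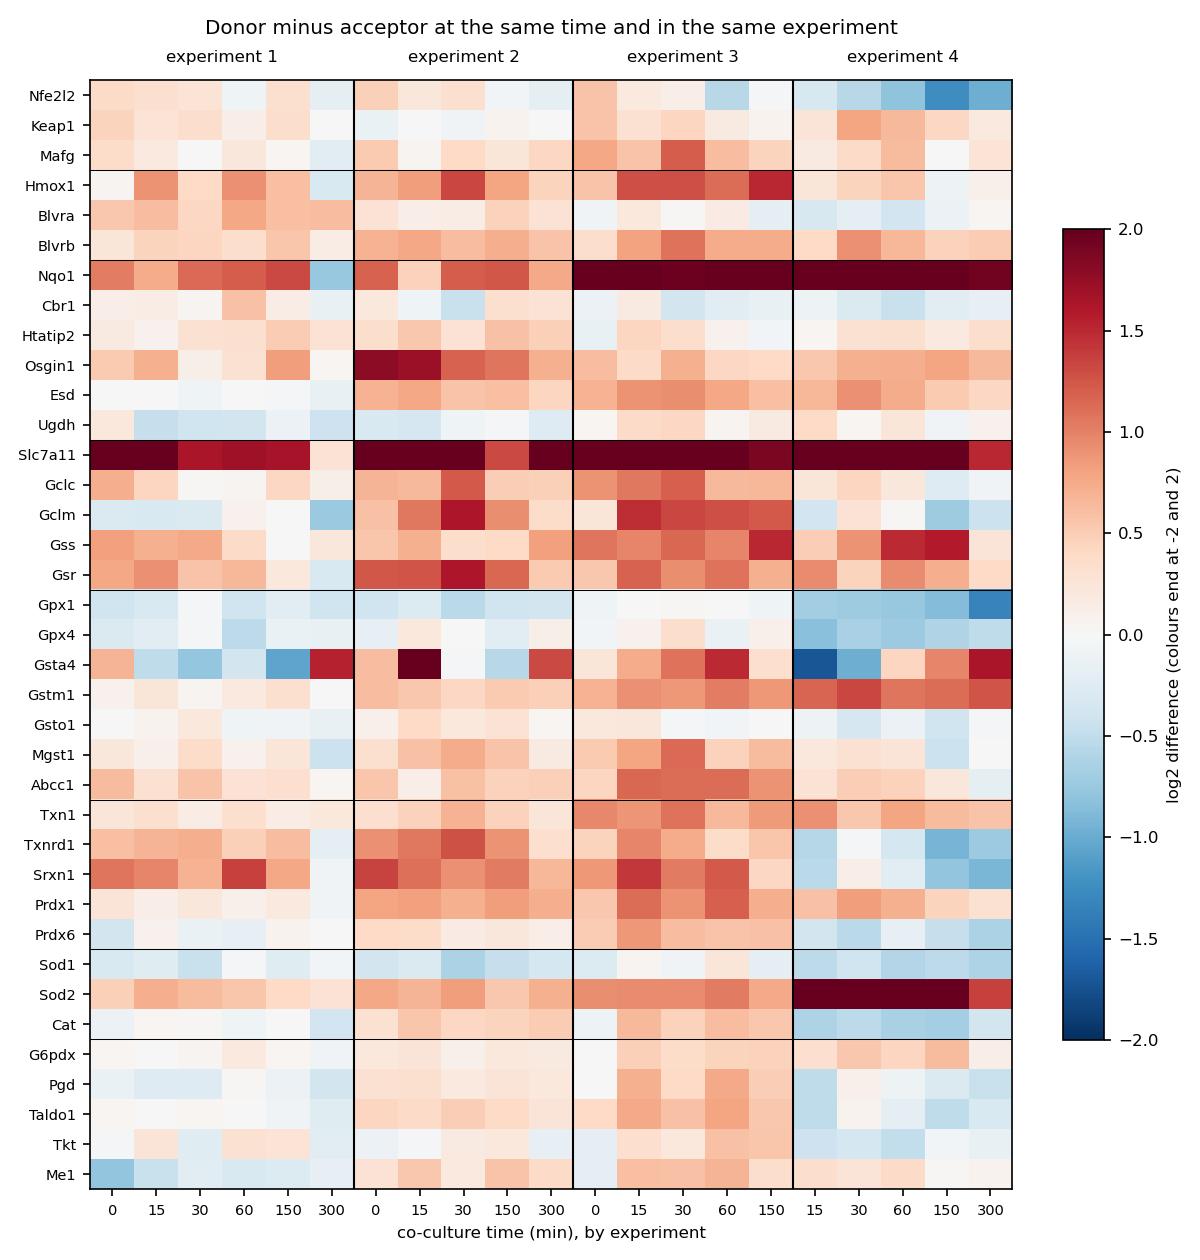
Log2 difference between donors and acceptors of the same time and experiment for the 37 members, ordered by role, with columns for the co-culture times within each experiment. Red is higher in donors, blue higher in acceptors, and colours end at -2 and 2. Slc7a11, Blvrb and Sod2 are red in every column, Nqo1 in all but experiment 1 at 300 min, Gpx1 and Sod1 mostly pale or blue, and in experiment 4 Nfe2l2 and Txnrd1 are blue or near white at every time.

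Read within each experiment, the members separated the loaded cells from the acceptors unevenly. Taking aSyn-treated cells and all donors of an experiment against all its acceptors, 3 members (Slc7a11, Blvrb and Sod2) had every loaded library above every acceptor library in all 4 experiments, beside 0.987% of all genes. By experiment the count was 6, 20, 19 and 11 members, beside 5.60, 5.89, 5.02 and 13.5% of all genes. Experiments 2 and 3 carried most of the separation, and in experiments 1 and 4 the members' share (16.2 and 29.7%) was closer to that of all genes. In the other direction 2, 2, 0 and 6 members had every loaded library below every acceptor library, beside 3.27, 5.32, 5.23 and 15.7% of all genes. Gpx1 did so in experiments 1, 2 and 4, and Sod1 in 2 and 4.

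Experiment 4 put several members the other way round, about as often as genes in general. There 6 of 37 members (16.2%) had every loaded library below every acceptor library, beside 15.7% of all genes. Txnrd1 ran from 353 to 595 CPM over the acceptors of experiment 4 and from 308 to 349 CPM over its aSyn-treated and donor libraries, although untreated cells stood at 181 CPM. In experiment 2 the same ranges were 74.9 to 96.2 CPM for acceptors and 105 to 202 CPM for loaded cells. So acceptors of experiment 4 exceeded the loaded cells, and those of experiment 2 fell short of them without overlap. Srxn1 had a median of 599 CPM in acceptors and 441 CPM in loaded cells in experiment 4, against 354 and 683 CPM in experiment 3. Gclm had 280.4 CPM in acceptors and 227.9 CPM in loaded cells in experiment 4, against 45.8 and 112 CPM in experiment 3. In experiment 1 the acceptors of Gclm were the higher too, at a median of 59.2 against 49.2 CPM. Nfe2l2 had 412 CPM in acceptors and 256.1 CPM in loaded cells in experiment 4, without overlap. In the opposite direction, 11 members had every loaded library above every acceptor library in experiment 4, beside 13.5% of all genes. They were Slc7a11, Blvrb, Esd, Osgin1, Nqo1, Gstm1, Prdx1, Txn1, G6pdx, Keap1 and Sod2. Not all of them did so elsewhere: Esd had the higher median in acceptors in experiment 1 (638 against 621 CPM), and Keap1 in experiment 2 (118 against 112 CPM).

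Other measures set experiment 4 apart as well, and their part in this was not tested. The summed level of the 12 microglia markers was 1564 to 1837 CPM in the aSyn-treated and donor libraries of experiment 4 and 3191 to 3569 CPM in its acceptors, against 3528 to 5579 CPM in the loaded libraries of experiments 1 to 3. Markers of other myeloid cells summed to 13.6 to 19.4 CPM in the loaded libraries of experiment 4 and to 106 to 136 CPM in its acceptors. In that sum Mrc1 was the only marker to pass 8.46 CPM in any library. Without experiment 4, with the block, Srxn1 was called higher in donors than in acceptors at 0, 15, 30, 60 and 150 min and Txnrd1 at 0, 15, 30 and 150 min, while neither was called at any time with all 4 experiments. The number of members called at 15 min was 13 either way, of which 10 were shared. At 30 min 12 of the 14 called without experiment 4 were among the 18. At 0 min, where experiment 4 has no library, the count was 13 in place of 6. The libraries at 0 min are the same in both fits. The fits differ in what is shared with the other groups: the estimate of spread, the block, the filter and the scaling. Which of these changed the count was not tested. The share of all genes called without experiment 4 is not given here.

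**Figure D5:**
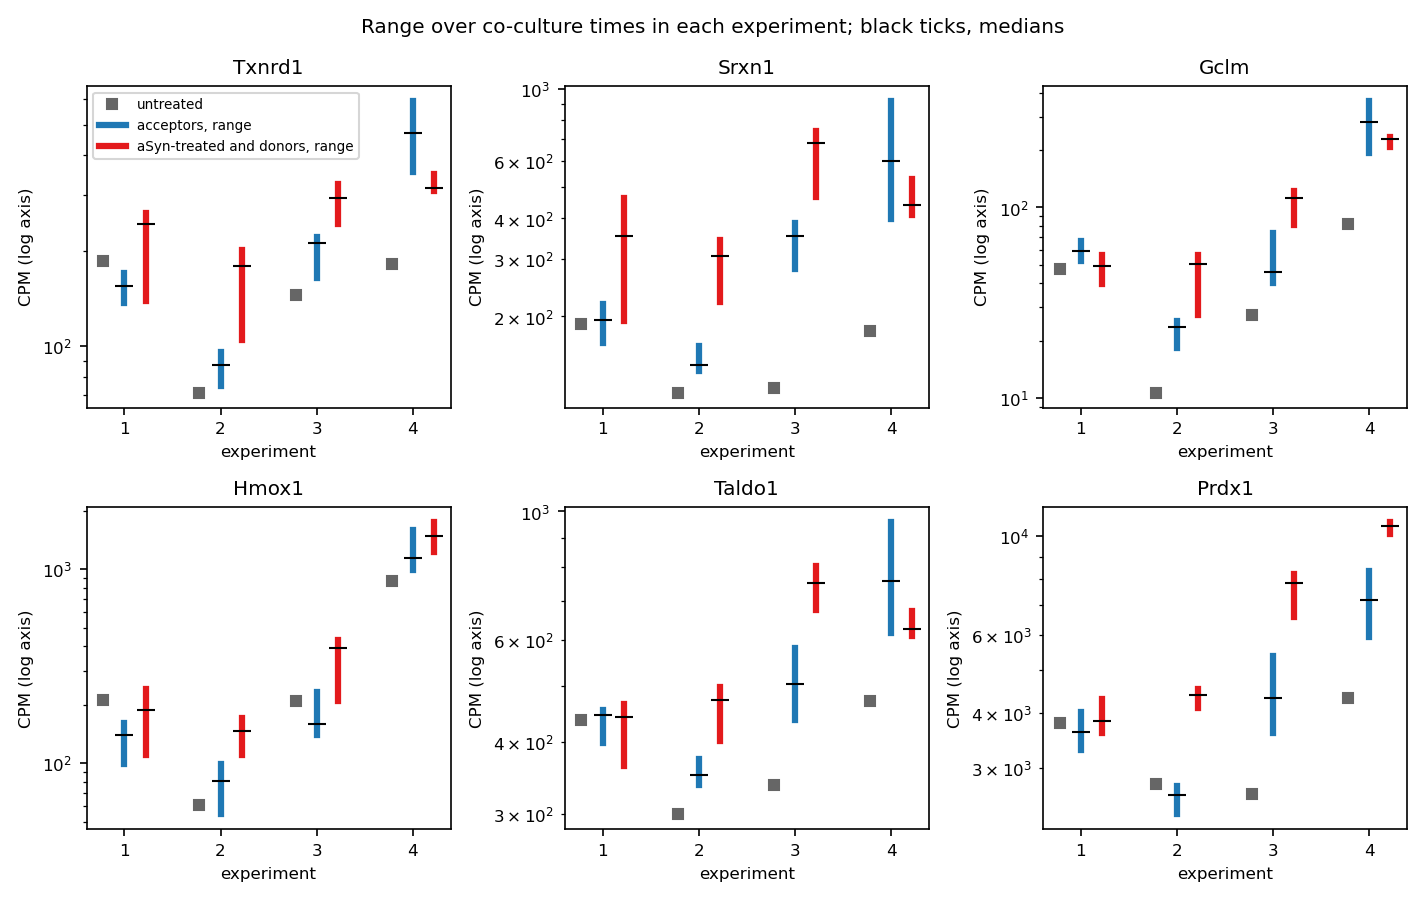
Level (CPM, log axis) of 6 members in each experiment: untreated cells as grey squares, the range over acceptors in blue and over aSyn-treated cells and donors in red, with black ticks at the medians. For Txnrd1, Srxn1, Gclm and Taldo1 the acceptor median of experiment 4 lies above that of the loaded cells, and in experiment 1 it does so for Gclm and Taldo1. In experiments 2 and 3 the loaded cells have the higher median for all 6 genes.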

How the data were processed

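QuantSeq 3′ libraries, sequenced as single reads, were summarised per gene. The authors deposited counts per gene, and a normalized signal that equals the count divided by 1 size factor per library in 100% of values (tolerance 0.051). STAR, Partek, DESeq2 and the build mm10 are named per the submitters' processing notes, with no role or version. Counts were tested and the signal was not used further. Untreated libraries that share a number were summed and counted once, giving 52 units. Genes were filtered with filterByExpr (minimum count 10) and fitted over all 14 groups with edgeR 4.0.16 (R 4.3.3, TMM scaling, quasi-likelihood test, two-sided, Benjamini-Hochberg adjustment over 13169 genes, threshold 0.05), first without a block and then with the replicate number as one. The code was tested on simulated data. Log2 CPM used a prior count of 2. DESeq2 1.42.0, other filters, only the groups compared and leaving out each experiment were alternatives.

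Same-numbered libraries deviated together: the mean correlation of their deviations was 0.339 to 0.593 over the comparisons (lowest pair 0.199), against -0.184 to -0.116 for other numbers, and the labels give the same numbers to the groups. The biological coefficient of variation was 38.1% without and 21.0% with the block. Nothing in the labels ties a number to an animal, so p-values cannot be read as spread between animals. Without the block they rest on the spread between libraries within a group. With it they rest on the spread left after the experiment is taken out. Both spreads are estimated over all 14 groups, so libraries of the same experiment count as separate units. The fit to only the groups compared was made without the block.

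Members, lists and tests were chosen with earlier results of these data known. Members called in the aSyn comparison without the block, then those called with it in order of adjusted p, up to 12, are described in full (Htatip2, Osgin1, Esd, Slc7a11, Gclc, Gclm, Srxn1, Blvrb, Gsr, Sod2, Nqo1 and Txnrd1), and the others by their differences. A list of NADPH oxidase genes is not reported here as a whole.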

Additional observations from a re-analysis of the deposited data

Results flagged for a closer look

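In 7 of the 72 groups of 4 values that were checked, 1 experiment lay far from the other 3 by Dixon's criterion, which chance meets in about 1 in 20 groups. Sod2 made up 5 of the 7. In aSyn-treated cells experiment 4 stood at 1398.9 CPM and the others between 154.5 and 359.3 CPM. The log2 difference from untreated cells was 4.14 there and 0.79 to 1.28 elsewhere. Between donors and acceptors it was 2.91 at 15 min, against 0.68 to 0.94, and 3.19 at 30 min, against 0.63 to 0.95. In untreated cells experiment 3 was the high one, at 147.7 CPM against 79.2 to 89.3 CPM.

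Gclc in aSyn-treated cells was highest in experiment 4, at 186.8 CPM against 40.6 to 61.8 CPM. For Esd the log2 difference between donors and acceptors at 150 min was lowest in experiment 1, at -0.027 against 0.52 to 0.60. Sod2 in experiment 4 coincided with the low microglia marker sums of its loaded libraries, and the part of these was not tested.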

How the results depend on the processing

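In the aSyn comparison 3 members were called, 23 with the replicate block, 8 with the 6 untreated libraries kept separate, 1 with only the groups compared and 6 with DESeq2. Leaving out experiment 1, 2, 3 or 4 gave 1 to 3 without the block, and 25, 15, 13 and 16 with it. For acceptors against untreated cells the total over the 6 times was 0, 1 under DESeq2, 25 under the block and 19, 15, 5 and 15 under the block without experiments 1, 2, 3 and 4. For donors against aSyn-treated cells it was 0, and 0 to 3 under the block without 1 experiment (3 without experiment 4). For donors against acceptors it was 0, 1 under DESeq2, 55 under the block and 49, 16, 18 and 55 under the block without experiments 1, 2, 3 and 4. Change over time in donors gave 0, 1 under DESeq2 and 0 to 2 under the block without 1 experiment (2 without experiment 4). The other time tests gave 0 throughout. Shares of all genes called under these alternatives are not given here, so the counts describe only how the calls vary with the fit. Of the values of single members in the aSyn comparison under an alternative, 399 kept direction and call, 86 passed the threshold where the reported fit did not, 7 lost it and 26 changed sign, all 26 in members that were not called. Keap1 was at -0.025 on the log2 scale with separate untreated libraries, between -0.15 and 0.35 without 1 experiment, and at -0.098 without experiment 4 with the block. Cbr1 lay between -0.17 and 0.029 without 1 experiment, and Ugdh between -0.056 and 0.23, with -0.048 and -0.094 under the block without experiments 3 and 4. Gpx4 was at -0.011 under the block without experiment 3. Gsta4 was at -0.075 under the block, at -0.35 without experiment 3, and at -0.42 and -0.024 under the block without experiments 3 and 4. Cat was at 0.037 under the block, 0.015 with no filter, 0.016 with only the groups compared, between -0.20 and 0.21 without 1 experiment, and at 0.25 and 0.18 under the block without experiments 1 and 4. Tkt was at 0.0021 with no filter, 0.0041 with only the groups compared, up to 0.11 without 1 experiment, and at 0.044 and 0.095 under the block without experiments 2 and 4. The cause was not tested. Depth limits the low values of Gsta4, Nqo1 and Slc7a11, and each group has only 3 or 4 experiments.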
